A study of Mus musculus with 6 samples.

Results

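The genes described are 10 genes of fatty acid uptake, storage and oxidation: Pparg, Cd36, Fabp5, Cpt1a, Cpt2, Acadvl, Hadha, Dgat1, Dgat2 and Plin2. They were chosen by name, with earlier results of these data known. All 10 were found among the 21825 genes of the deposited count table. The cells were group 2 innate lymphoid cells (ILC2s), lymphocytes without a rearranged antigen receptor that make type 2 cytokines, taken from lung by sorting (BALB/c mice, 6 weeks old). Every mouse had been given IL-33 by 3 intraperitoneal injections of 1 µg, and every culture held IL-2 and IL-7 at 10 ng/mL each for 48 h. The cultures differed in the further addition of TNFa at 40 ng/mL or of PBS, with 3 libraries each, numbered 1 to 3 for PBS and 4 to 6 for TNFa. All libraries thus came from IL-33-expanded cells, and freshly sorted or untreated lung cells were not analysed here. Whether each library had its own animals or culture is not stated, so the p-values below speak of library-to-library spread, which may be technical.

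Fatty acids enter a cell with the help of the scavenger receptor CD36 and of fatty acid transport proteins, and are carried in the cytosol by small binding proteins such as FABP5. They are then joined to coenzyme A and either stored as triglyceride in lipid droplets, where DGAT1 and DGAT2 make the triglyceride and perilipin 2 coats the droplet, or passed into mitochondria through the carnitine shuttle of CPT1A and CPT2 and broken down by the enzymes of beta-oxidation. PPARg is a nuclear receptor that is activated by fatty acids and their derivatives and that switches on many of these genes. In ILC2s, PPARg, lipid uptake and droplet formation have been described as supporting proliferation and cytokine output.

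PPARg binds DNA together with RXR at a direct repeat: the half-site AGGTCA, 1 base of any kind (N), then AGGTCA again. The RefSeq promoter table (GRCm38.p6) held 9 start sites for 7 of the 10 genes, namely Pparg with 3 and Cd36, Cpt1a, Cpt2, Acadvl, Hadha and Plin2 with 1 each. Fabp5, Dgat1 and Dgat2 had no entry. The 250 bases before each start were searched on both strands. The full repeat had no match in the 9 member windows and matched 0.0335% of all 32851 windows. The half-site, which the repeat contains, was present before 6 of the 9 starts, in 5 of the 7 genes, and in 14% of all windows. A match is a description of the letters in the window and no evidence of binding.

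Printed next are the windows of the 4 abundant genes that held the half-site, 5′ to 3′ on the strand of the gene, with the half-site or its reverse complement in capitals. They are Plin2, the most abundant of the 10 genes, on the minus strand at chr4:86670060-86670309, the first Pparg start, on the plus strand at chr6:115360894-115361143, Acadvl, on the minus strand at chr11:70015429-70015678, and Cpt1a, on the plus strand at chr19:3323051-3323300. The match began 218 bases before the start in Plin2, 28 in Pparg, 87 in Acadvl and 94 in Cpt1a. These starts are those of RefSeq. The Pparg gene as counted here begins at 115360951, within the printed window, so the Pparg match lies inside that gene.
Plin2: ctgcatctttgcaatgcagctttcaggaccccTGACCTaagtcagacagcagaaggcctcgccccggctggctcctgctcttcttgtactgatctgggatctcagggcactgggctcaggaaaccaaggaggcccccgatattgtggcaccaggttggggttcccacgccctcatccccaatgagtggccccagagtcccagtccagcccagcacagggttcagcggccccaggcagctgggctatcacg
Pparg: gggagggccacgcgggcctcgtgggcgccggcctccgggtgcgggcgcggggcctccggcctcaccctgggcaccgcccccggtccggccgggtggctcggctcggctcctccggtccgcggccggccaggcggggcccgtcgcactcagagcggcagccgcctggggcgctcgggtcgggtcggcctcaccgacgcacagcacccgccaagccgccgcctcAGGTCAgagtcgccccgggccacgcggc
Acadvl: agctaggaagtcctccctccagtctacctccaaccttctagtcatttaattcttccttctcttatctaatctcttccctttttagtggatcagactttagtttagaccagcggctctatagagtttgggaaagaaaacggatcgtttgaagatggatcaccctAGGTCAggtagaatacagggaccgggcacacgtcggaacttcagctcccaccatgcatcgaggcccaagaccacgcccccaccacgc
Cpt1a: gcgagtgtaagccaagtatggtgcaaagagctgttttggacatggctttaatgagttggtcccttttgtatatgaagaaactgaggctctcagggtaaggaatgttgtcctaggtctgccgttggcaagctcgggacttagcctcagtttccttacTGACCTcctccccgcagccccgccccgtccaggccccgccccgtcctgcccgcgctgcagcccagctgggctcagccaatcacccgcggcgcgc

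The libraries held 25089415 to 32487004 estimated counts assigned to genes (two-sided p = 0.5 between the groups by exact permutation, where 0.1 is the lowest p this design can reach). All 14 ILC2 markers listed passed the filter on low counts. They summed to 9712 to 10940 CPM (counts scaled to a common library size by TMM) with PBS and 10240 to 11210 CPM with TNFa, led by Il5 and Il2ra. Thy1, a surface marker of the list named after its values were seen, was scarce, at 2.76 ± 0.65 and 3.35 ± 1.05 CPM. The sum of the 14 covers opposite differences. A lower mean with TNFa was seen in 9, 8 of them without overlap and 7 at an unadjusted p under 0.05 (edgeR). The other 5 had a higher mean, 2 of them without overlap and 4 at that threshold. Of all tested genes, 8.35% lay below and 6.83% above without overlap. At that threshold, 4.63% of all tested genes were lower and 3.68% higher. Icos, a costimulatory receptor, fell by 0.78 on the log2 scale (adjusted p = 0.036, edgeR; 888 ± 69.0 and 517 ± 33.1 CPM), and was the one marker of the list to pass. Gata3, the ILC2 master transcription factor (978 and 705 CPM), and Il1rl1, the IL-33 receptor (616 and 424.5 CPM), did not (adjusted p = 0.20 and 0.22). PBS replicate 2 carries the word repeat in its column name. TNFa replicate 5 stood apart, with a mean correlation of 0.949 with the other libraries against 0.964 to 0.967 for the rest. The 10 genes together took 0.155% to 0.157% of the counts in 5 libraries and 0.142% in that one. Values are therefore given with and without it where it matters.

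Several of the 10 genes are abundant in other lung cells, so markers of those cells were measured too. Alveolar macrophages are rich in Pparg, Cd36 and Plin2; the 13 myeloid markers found of 15 listed summed to 44.1 to 103 CPM with PBS and 14.9 to 54.7 CPM with TNFa, most of it Chil3 and Lyz2. Of the 13, Mrc1, Car4, Krt79 and Fcgr1 stayed at or below 0.817 CPM in every library. The highest library reached 1.33 CPM for Siglecf, 1.99 for Adgre1, 2.62 for Ear2, 3.03 for Cd14 and 5.69 for Itgax. It reached 6.30 CPM for Csf1r, 8.165 for Cd68, 24.05 for Lyz2 and 56.9 for Chil3. Of the 9 tested, 6 had a lower mean with TNFa and 3 a higher one (Ear2, Csf1r and Cd14), all with overlap. Of 7 adipocyte markers, Plin1 and Retn were measured and together reached at most 0.848 CPM. The endothelial markers summed to 77.4 to 146 CPM over all libraries, nearly all of it Pecam1, with Vwf at most 0.539 CPM and Cldn5 at most 0.411 CPM. Mast cell and basophil markers were abundant in both groups (1213 to 1377 CPM with PBS, 1286 to 1464 CPM with TNFa), led by Tpsab1 and Cma1. Epithelial markers summed to 36.9 to 40.6 CPM with PBS and 31.1 to 101 CPM with TNFa, led by Scgb1a1 and Epcam. These 2 differed in opposite directions. Scgb1a1 was at 4.73 ± 4.19 CPM with PBS and 42.4 ± 40.5 CPM with TNFa, with overlap (adjusted p = 0.73, edgeR). Epcam was at 27.4 ± 1.59 and 14.2 ± 1.06 CPM, without overlap (adjusted p = 0.088). The T cell markers, led by Cd3g and Foxp3, had a lower sum in every TNFa library (107 to 110 CPM, against 125 to 143 CPM with PBS). So had the B cell markers, led by Cd79b and Ms4a1 (14.4 to 17.5 against 20.7 to 20.8 CPM). Single markers were less uniform. Of 9 T cell markers, 7 had a lower mean, 2 of them without overlap, and 2 a higher one. Cd3g overlapped (43.1 ± 3.26 and 41.2 ± 7.99 CPM). Of 5 tested B cell markers, 4 had a lower mean, 1 of them without overlap, and 1 a higher one. Of all tested genes, 8.35% lay below without overlap. The part of these markers in the differences below was not tested. In such bulk libraries, fewer cells of a type and less RNA per cell cannot be told apart.

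The levels of the 10 genes were compared per length, as CPM per kb of merged exons (GENCODE M21), averaged over the 6 libraries. Plin2, the droplet coat protein perilipin 2, stood first at 146 ± 9.06 CPM per kb (SD, n = 6) and did not overlap with any other of the genes. Acadvl at 76.5 ± 5.34, Pparg at 73.4 ± 5.96 and Fabp5 at 71.8 ± 15.7 CPM per kb followed, and neighbours overlapped over the 6 libraries. For Fabp5 that overlap came only from taking PBS and TNFa libraries together. With PBS it lay at 57.9 to 59.2 CPM per kb, below every value of Acadvl and Pparg (lowest 72.7 and 65.2). With TNFa it lay at 78.0 to 96.2 CPM per kb, above every value of both (highest 73.5 and 76.6). Cpt1a (16.5 ± 3.82), Dgat1 (14.0 ± 1.61), Hadha (13.6 ± 1.44), Cpt2 (11.0 ± 2.55) and Dgat2 (8.42 ± 1.68 CPM per kb) formed a lower group, each overlapping with the next. Cd36 came last at 1.27 ± 0.58 CPM per kb, below all others in every library. Transcripts of the cytosolic fatty acid carrier and of the droplet coat were thus far more abundant than those of the surface receptor. Of the 10 genes, 9 lay above the median level of tested genes, which was 3.47 CPM per kb, and Cd36 below it.

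**Figure D1:**
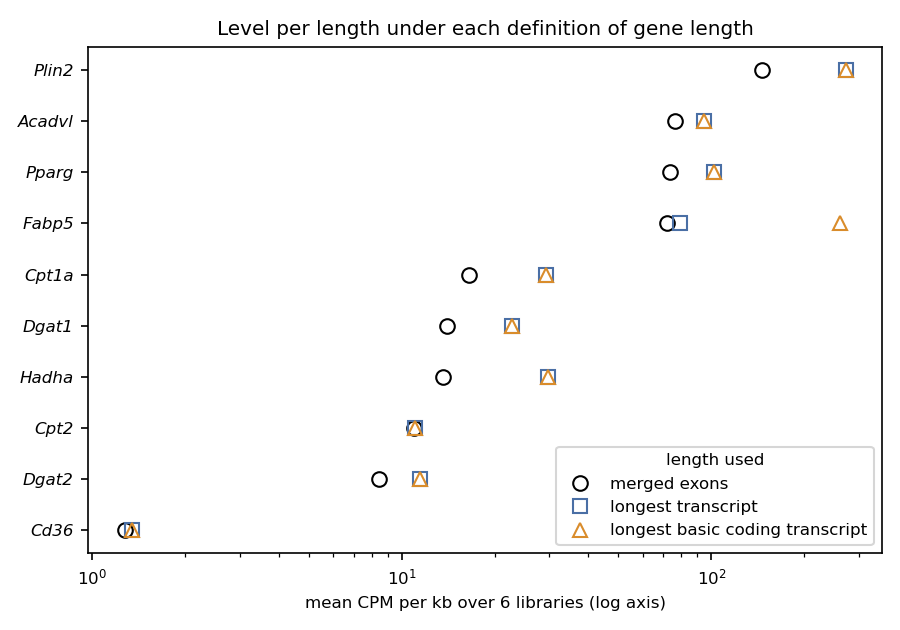
Mean level of each gene over the 6 libraries, in CPM per kb on a log axis, with 3 definitions of gene length (black circles, merged exons; blue squares, longest transcript; orange triangles, longest coding transcript of the GENCODE basic set). Plin2 has the highest and Cd36 the lowest mean over both groups under all 3, whereas Fabp5 moves from 71.8 to 260 CPM per kb with the length used.

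These levels depend on the length assigned to the gene. The merged exons of Fabp5 cover 3.57 kb in 2 blocks, whereas its longest coding transcript in the GENCODE basic set has 0.987 kb. With the latter, a length chosen after seeing the data, Fabp5 stood at 260 CPM per kb and ranked second behind Plin2 at 272 CPM per kb. Hadha, at 8.73 kb of merged exons against 4.02 kb in its longest transcript, likewise went from 13.6 to 29.6 CPM per kb. Averaged over the 6 libraries, Plin2 remained first under each of the 3 lengths, and Cd36 was last in every library. With the short coding length, however, Fabp5 stood first in all 3 TNFa libraries (292, 347.5 and 282 CPM per kb in replicates 4 to 6, against 270, 248 and 263 for Plin2), and Plin2 in all 3 PBS libraries.

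The comparison of TNFa with PBS asked how TNFa altered the ILC2 transcriptome. None of the 10 genes passed an adjusted p of 0.05 by edgeR's quasi-likelihood method, Benjamini-Hochberg adjusted over all 15719 tested genes. All 10 passed the filter on low counts. The background is low as well: 0.102% of all tested genes passed, 14 higher (0.0891%) and 2 lower (0.0127%) with TNFa, or 16 higher and 13 lower once the trend with gene length is taken out. Without TNFa replicate 5, 0.406% of genes passed and again none of the 10. DESeq2 called 1 of the 10, Fabp5, as higher, where 0.665% of its tested genes were called higher and 0.822% lower. At an unadjusted p under 0.05 there were 2 of the 10, Fabp5 higher and Cpt1a lower, against 8.31% of all genes; Cpt1a missed that threshold when any 1 of the PBS libraries was left out. Means were higher with TNFa for Fabp5 and Dgat2 and lower for the other 8, with a median log2 fold change of -0.13 against 0.00 over all tested genes. The groups did not overlap in 4 of the 10 genes, Fabp5 above and Cpt1a, Hadha and Plin2 below, against 15.2% of all tested genes in either direction.

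**Figure D2:**
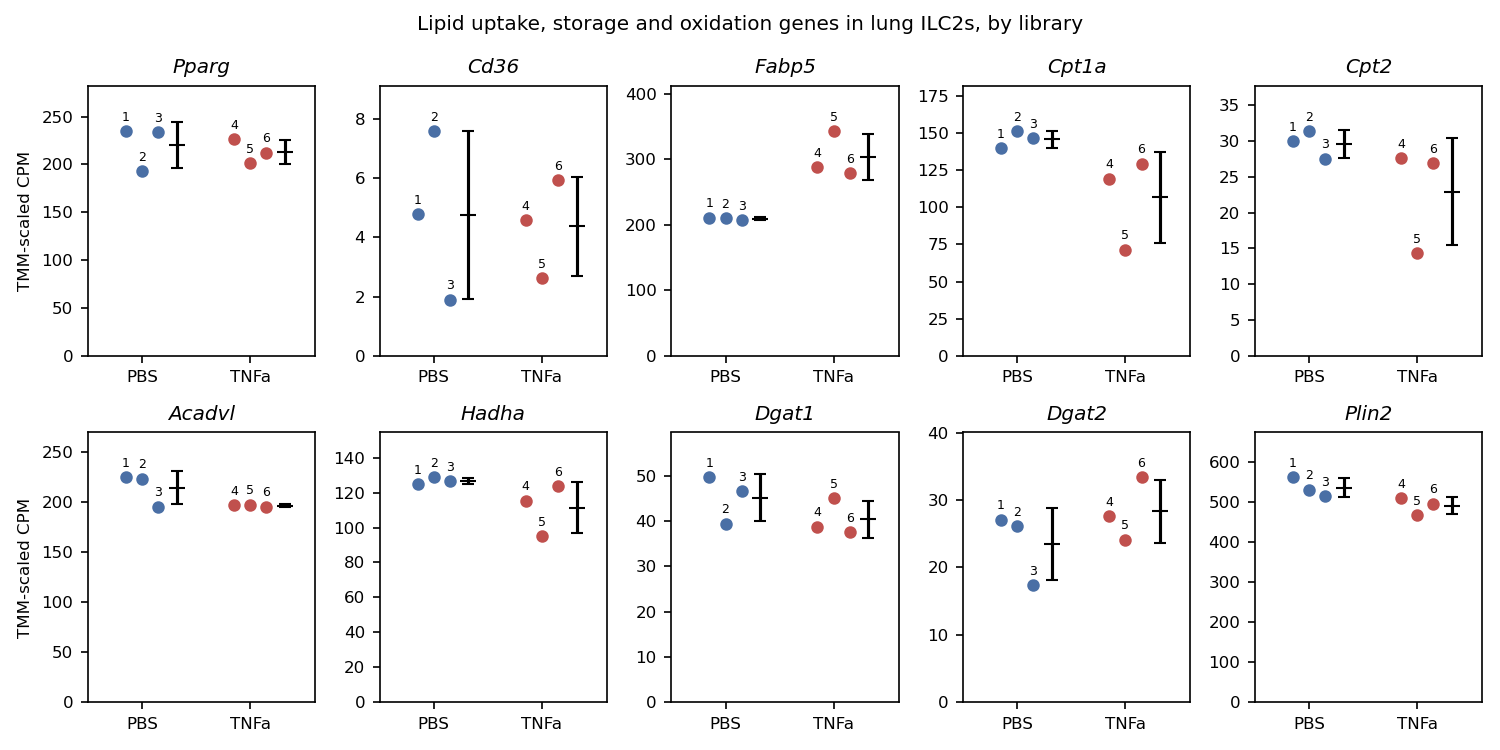
TMM-scaled CPM of each gene in every library (points, labelled with the replicate number; blue PBS, red TNFa), with the mean and SD of each group in black; each panel starts at 0. Fabp5 is higher in all 3 TNFa libraries, while Cpt1a and Cpt2 have their lowest value in TNFa replicate 5, at 71.5 and 14.3 CPM.

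Pparg (chromosome 6, 115360951 to 115490399, plus strand; coordinates are mm10) encodes the lipid-activated nuclear receptor itself. It was at 235, 193 and 234 CPM in PBS replicates 1 to 3 and at 226, 201 and 212 CPM in TNFa replicates 4 to 6. The TNFa libraries lay within the PBS range, and PBS replicate 2 was the lowest of all. The log2 fold change was -0.05 ± 0.11 (SE, adjusted p = 0.94, edgeR), a ratio of 0.968 with a 95% interval from 0.812 to 1.15. Pparg overlaps Gm44079 on the opposite strand, and its estimated counts were fractional in all 6 libraries, so its value depends on how reads were divided among overlapping or similar genes.

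Cd36 (chromosome 5, 17781690 to 17888801, minus strand) encodes the surface receptor for long-chain fatty acids. It was scarce, with 4.77, 7.59 and 1.90 CPM in PBS replicates 1 to 3 and 4.58, 2.62 and 5.93 CPM in TNFa replicates 4 to 6. Its libraries spread up to 4-fold within the PBS group alone, and the groups overlapped entirely. The ratio of 0.923 had a 95% interval from 0.427 to 1.99 (adjusted p = 0.97, edgeR), so a change in either direction of the size seen for Fabp5 was not detectable here. The sign turned without PBS replicate 2 (log2 fold change 0.39) and without TNFa replicate 5 (0.14).

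Fabp5 (chromosome 3, 10012548 to 10016607, plus strand), the cytosolic carrier of fatty acids, had the largest difference. It was at 211, 210 and 207 CPM in PBS replicates 1 to 3 and at 288, 343 and 278 CPM in TNFa replicates 4 to 6. All 3 TNFa libraries lay above all 3 PBS libraries, which differed among themselves by little, and TNFa replicate 5 was the highest. The means were 209 ± 2.38 and 303 ± 34.9 CPM (SD, n = 3 each), a ratio of 1.45 with a 95% interval from 1.22 to 1.72 and a log2 fold change of 0.53 ± 0.11. The adjusted p was 0.17 in edgeR's quasi-likelihood test and 0.0013 in DESeq2. Without TNFa replicate 5 the log2 fold change was 0.43 ± 0.08 with an adjusted p of 0.0502 in edgeR, so most of the difference remained without that library. Estimated counts of Fabp5 were fractional in all 6 libraries too.

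Plin2 and the DGAT enzymes store what is taken up. Plin2 (chromosome 4, 86648386 to 86670060, minus strand) was at 562, 532 and 515 CPM with PBS and at 510, 468 and 497 CPM with TNFa. The groups did not overlap, but PBS replicate 3 and TNFa replicate 4 were nearly equal. The log2 fold change of -0.13 ± 0.09 did not pass (adjusted p = 0.77, edgeR; ratio 0.917, 95% interval 0.794 to 1.06).

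Dgat1 (chromosome 15, 76502015 to 76511953, minus strand) and Dgat2 (chromosome 7, 99153658 to 99182719, minus strand) are unrelated enzymes that catalyse the same last step of triglyceride synthesis. Dgat1 was at 49.6, 39.4 and 46.5 CPM with PBS and 38.7, 45.1 and 37.5 CPM with TNFa. Dgat2 was at 27.1, 26.1 and 17.4 CPM with PBS and 27.6, 24.1 and 33.3 CPM with TNFa. Both pairs of groups overlapped, and the means differed in opposite directions, at -0.16 ± 0.15 on the log2 scale in Dgat1 (adjusted p = 0.81, edgeR) and 0.27 ± 0.21 in Dgat2 (adjusted p = 0.77). For Dgat2, leaving out PBS replicate 3, its lowest library, brought the log2 fold change to 0.09. Of the pair, Dgat1 had the higher level, at 14.0 against 8.42 CPM per kb, with their ranges not overlapping.

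**Figure D3:**
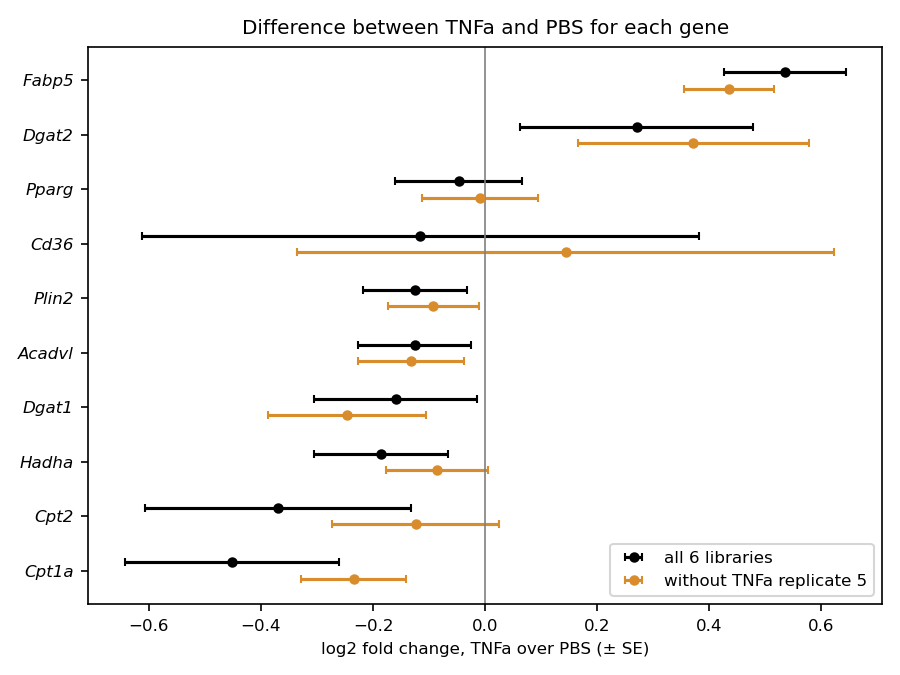
Log2 fold change of TNFa over PBS for each of the 10 genes with its SE, from all 6 libraries (black) and without TNFa replicate 5 (orange). Fabp5 stays to the right of 0 in both fits, whereas Cpt1a, Cpt2 and Hadha move towards 0 without that library.

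Cpt1a and Cpt2 encode the outer and inner carnitine palmitoyltransferases, which carry long-chain fatty acids into mitochondria, and Cpt1a sets the rate of that step. Cpt1a (chromosome 19, 3323301 to 3385732, plus strand, as the deposited table gives it) was at 140, 151 and 146 CPM in PBS replicates 1 to 3 and at 119, 71.5 and 129 CPM in TNFa replicates 4 to 6. All 3 TNFa libraries lay below all PBS libraries, replicate 5 by far the most. The means were 146 ± 5.72 and 106.5 ± 30.8 CPM, with a log2 fold change of -0.45 ± 0.19 (adjusted p = 0.56, edgeR) and a ratio of 0.731 (95% interval 0.543 to 0.983). Without TNFa replicate 5 the log2 fold change was -0.23 ± 0.09 (adjusted p = 0.39).

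Cpt2 (chromosome 4, 107903981 to 107923610, minus strand) was at 29.9, 31.4 and 27.5 CPM with PBS and 27.5, 14.3 and 26.9 CPM with TNFa. Here TNFa replicates 4 and 6 lay at the lower edge of the PBS libraries and replicate 5 far below them. Its log2 fold change was -0.37 ± 0.24 (adjusted p = 0.73, edgeR) and -0.12 ± 0.15 without replicate 5. Relative to the PBS mean, on the scale of log2(CPM + 0.5), TNFa replicate 5 stood at -1.02 for both Cpt1a and Cpt2, while replicates 4 and 6 stood at -0.29 and -0.17 for Cpt1a and at -0.10 and -0.14 for Cpt2.

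Acadvl and Hadha act inside the mitochondrion. Acadvl, the very long-chain acyl-CoA dehydrogenase, starts a round of oxidation while the chain is long. Hadha is the alpha subunit of the trifunctional protein that completes such a round. Acadvl (chromosome 11, 70010183 to 70015411, minus strand) was at 224.5, 223 and 195 CPM with PBS and 197, 198 and 195 CPM with TNFa. Its 3 TNFa libraries were nearly equal and matched PBS replicate 3, the other PBS libraries being higher (log2 fold change -0.13 ± 0.10, adjusted p = 0.79, edgeR). Hadha (chromosome 5, 30118304 to 30155162, minus strand) was at 125, 129 and 127 CPM with PBS and 115, 95.05 and 124 CPM with TNFa. The TNFa libraries all lay lower, replicate 6 only just and replicate 5 the most (log2 fold change -0.19 ± 0.12, adjusted p = 0.73; -0.09 without replicate 5). Acadvl and Hadha overlap Dvl2 and Garem2 on the opposite strand and had fractional counts in all 6 libraries.

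The libraries can also be read across the 10 genes. TNFa replicate 5 was the lowest of the 6 libraries in 4 genes (Cpt1a, Cpt2, Hadha and Plin2) and the highest in Fabp5. PBS replicate 3 was the lowest in 4 others (Cd36, Fabp5, Acadvl and Dgat2). PBS replicates 1 and 2 were each the highest in 4 genes.

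These pathways were examined further as 7 lists. None of the listed genes passed in edgeR's test, where 0.102% of all tested genes passed. DESeq2 called Tfeb and Cat, both lower, where 0.822% of all its tested genes were called lower. Of the lists, 6 had a negative median log2 fold change and that of triglyceride synthesis and droplet genes was 0.01. Of all 15719 tested genes, 7951 had a higher and 7768 a lower mean with TNFa. The counts of higher and lower means in each list can be set beside that split. The lists were not tested as sets, and some genes stand in more than one list.

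**Figure D4:**
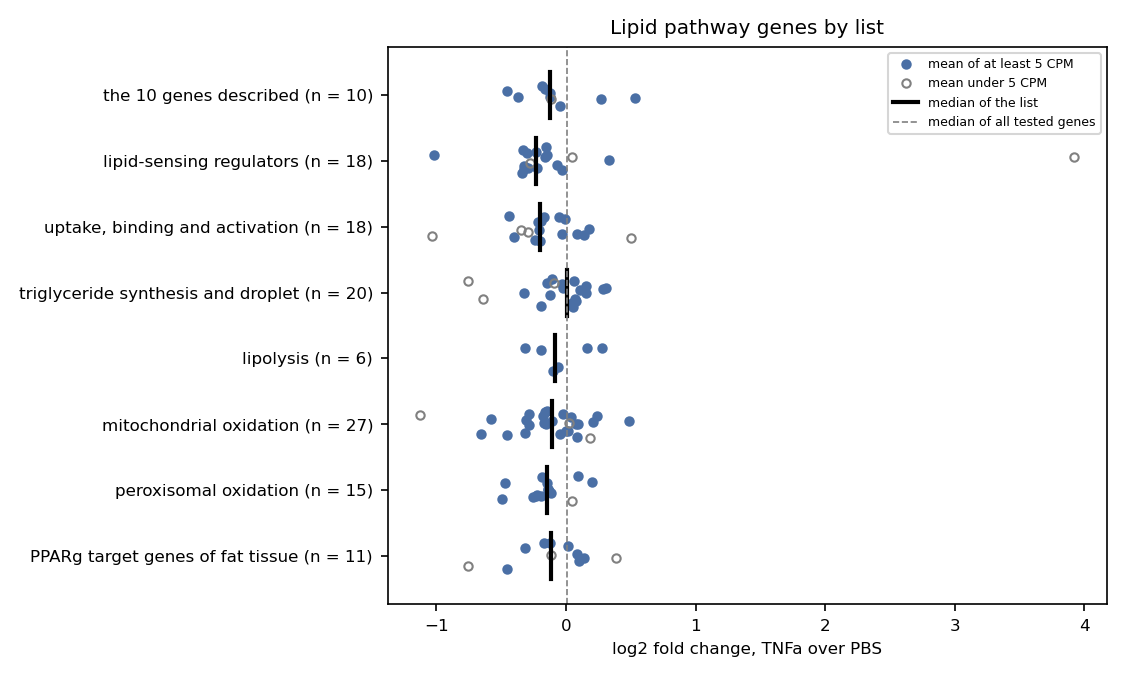
Log2 fold change of TNFa over PBS for every tested gene of the 10 genes described and of 7 further lists (filled, mean of at least 5 CPM; open, lower; random vertical spread), with the median of each list as a black bar and that of all tested genes as a dashed line. The list medians lie between -0.23 and 0.01; the open point near 4 is Nr1h3.

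Of 23 lipid-sensing regulators, 18 were tested, 3 with a higher and 15 with a lower mean (median -0.23; -0.14 without TNFa replicate 5, with 6 higher and 12 lower). Tfeb, a transcription factor of lysosome genes and lipid breakdown, was at 17.8 ± 2.60 CPM with PBS and 8.77 ± 1.13 CPM with TNFa, a log2 fold change of -1.02 ± 0.21 (adjusted p = 0.17 in edgeR and 0.00059 in DESeq2). Its groups did not overlap. Srebf2, which drives cholesterol synthesis and had the highest level per kb in the list, was at 236 ± 26.8 and 188 ± 11.9 CPM (log2 fold change -0.32 ± 0.11, adjusted p = 0.46, edgeR). Med1, a Mediator subunit that PPARg recruits, was at 49.8 ± 3.54 and 62.8 ± 6.43 CPM (0.33 ± 0.13, adjusted p = 0.51). At an unadjusted p under 0.05 there were 2 regulators higher, Med1 and the barely detected Nr1h3, and 2 lower, Tfeb and Srebf2, against 3.68% and 4.63% of all genes. With single libraries left out there were 1 or 2 higher and 1 to 5 lower. The share of all genes was not computed for each of these fits. Of the RXR partners of PPARg, Rxrb was at 40.9 ± 8.003 and 36.5 ± 4.10 CPM and Rxra at 21.9 ± 4.17 and 19.7 ± 2.93 CPM (adjusted p = 0.84 and 0.88). The sister receptor Ppard was at 1.09 ± 0.14 and 1.12 ± 0.35 CPM, and Ppara was not analysed here. Nr1h3, Rxrb, Rxra and Ppard were picked for mention after their values were seen.

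Uptake, binding and activation genes numbered 33, of which 18 were tested, 4 with a higher and 14 with a lower mean (median -0.20; -0.18 without TNFa replicate 5). Dbi, the acyl-CoA binding protein, had the highest level per kb and stood at 161 ± 14.2 CPM with PBS and 158 ± 39.9 CPM with TNFa (adjusted p = 0.97, edgeR). Ffar2, a receptor for short-chain fatty acids, had the largest positive log2 fold change among those of at least 5 CPM, 0.17 ± 0.16 (adjusted p = 0.81; 0.09 without TNFa replicate 5). Slc27a1, a fatty acid transport protein, had the largest negative one, -0.44 ± 0.29 (adjusted p = 0.73; -0.25 without that library and -0.21 without PBS replicate 1).

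The 20 tested genes of triglyceride synthesis and the droplet, of 30 listed, divided into 10 with a higher and 10 with a lower mean. Hilpda, an inhibitor of droplet lipolysis, had the highest level per kb, 52.9 CPM per kb, and, among those of at least 5 CPM, the largest positive log2 fold change, 0.30 ± 0.12, with 52.2 ± 1.36 CPM in PBS and 64.5 ± 5.76 CPM in TNFa (adjusted p = 0.52, edgeR). Its TNFa libraries all lay above its PBS libraries. Soat2, which esterifies cholesterol, had the largest negative one at that level, -0.33 ± 0.28 (adjusted p = 0.80; -0.17 without PBS replicate 3). Of 9 lipolysis genes 6 were tested, 2 with a higher and 4 with a lower mean, and their median of -0.08 turned to 0.04 without PBS replicate 1. Pnpla2, the adipose triglyceride lipase, was the most abundant per kb at 53.5 ± 11.2 and 46.9 ± 4.14 CPM (adjusted p = 0.81, edgeR). The monoglyceride lipase Mgll had the largest positive log2 fold change among those of at least 5 CPM, 0.27 ± 0.29 (adjusted p = 0.84), which was 0.02 without TNFa replicate 5. The phospholipase Ddhd2 had the largest negative one, -0.32 ± 0.21 (adjusted p = 0.74), which was -0.08 without PBS replicate 3.

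Of 30 further genes of mitochondrial oxidation, 27 were tested, 10 with a higher and 17 with a lower mean (median -0.11; -0.06 without TNFa replicate 5, again 10 and 17). In 9 of the 27 the TNFa libraries all lay below the PBS libraries, against 8.35% of all tested genes, and in 0 all above, against 6.83%. They likewise all lay below in 4 of 18 regulators, 3 of 18 uptake genes and 3 of 15 peroxisomal genes. The same held in 3 of 11 PPARg targets (Plin2, Cpt1a and Ucp2), 1 of 20 triglyceride and droplet genes and 0 of 6 lipolysis genes. They all lay above in 2 regulators and 1 triglyceride and droplet gene. Of the 27, 6 were lower and 0 higher at an unadjusted p under 0.05, with all 6 libraries as without TNFa replicate 5. Without that library 5.56% of all genes were lower and 5.23% higher at that threshold. The count varied when some other libraries were left out. It was 3 lower without PBS replicate 2, 4 lower without PBS replicate 1, and 5 lower with 2 higher without TNFa replicate 4. The share of all genes at that threshold was not computed for these fits, which have fewer libraries. None passed after adjustment. Ucp2, an inner-membrane carrier, was the most abundant per kb at 1511 ± 110 CPM in PBS and 1214 ± 69.8 CPM in TNFa (log2 fold change -0.32 ± 0.10, adjusted p = 0.39, edgeR). Crat, the carnitine acetyltransferase, had the largest negative log2 fold change among those of at least 5 CPM, -0.66 ± 0.20, at 26.4 ± 3.10 CPM with PBS and 16.7 ± 3.77 CPM with TNFa (adjusted p = 0.39). Acad10, an acyl-CoA dehydrogenase family member, had the largest positive one at that level, 0.49 ± 0.44 (adjusted p = 0.81), and stood at 0.06 without TNFa replicate 5.

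Of 17 peroxisomal genes, 15 were tested, 3 with a higher and 12 with a lower mean (median -0.15; -0.11 without TNFa replicate 5). Scp2, the peroxisomal thiolase and sterol carrier gene, was the most abundant per kb, at 240.4 ± 14.9 and 222 ± 15.2 CPM (adjusted p = 0.80, edgeR). Ehhadh, the bifunctional enzyme, had the largest positive log2 fold change among those of at least 5 CPM, 0.20 ± 0.24 (adjusted p = 0.87). Catalase, Cat, named after its values were seen, was at 125 ± 6.95 and 90.5 ± 8.88 CPM without overlap between the groups (log2 fold change -0.47 ± 0.11, adjusted p = 0.28 in edgeR).

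PPARg target genes known from fat tissue were mostly scarce. Of 16 listed, 11 were tested, 5 with a higher and 6 with a lower mean; the median log2 fold change of -0.12 turned to 0.06 without TNFa replicate 5. Fabp4, Adipoq, Cidec, Pdk4 and Pck1 were not analysed here. Of those measured, Plin2, Ucp2 and Cpt1a were abundant, while Lpl stood at 17.0 ± 5.59 and 15.1 ± 2.97 CPM, Angptl4 at 7.78 ± 2.30 and 8.33 ± 1.95 CPM, and Plin1 at 0.661 ± 0.197 and 0.389 ± 0.167 CPM (adjusted p = 0.90, 0.96 and 0.79, edgeR; these 3 were named after their values were seen). Among those of at least 5 CPM, Cpt1a had the largest negative log2 fold change.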

How the data were processed

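RNA of cultured, sorted lung ILC2s was sequenced in 6 libraries, starting from 10 ng per the labels. The authors deposited estimated counts per gene, not scaled between libraries, made with Partek's E/M counting (expectation-maximization), as the deposited table's name states. The submitters' processing notes list CASAVA 1.8.2, STAR, Partek and mm10, with no role or order. Annotation release, gene filter and strand setting: not given in the sources used here. Every gene in the table had a total of at least 10, and 0 further value columns were present. Such counting can divide a read among genes; 41.7% of values were whole within 0.01. Genes overlapping on the opposite strand are uncertain.

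After rounding, the counts went into edgeR 4.0.16 (R 4.3.3): filterByExpr (minimum count 10, minimum total 15) left 15719 genes, libraries were scaled by TMM, and the robust quasi-likelihood test compared TNFa with PBS, adjusted over all tested genes by Benjamini-Hochberg at 0.05. SEs come from the fold change and its F statistic. DESeq2 1.42.0 was an alternative. The script was tested on simulated data. Exon lengths are from GENCODE M21.

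The genes, lists and tests were chosen with earlier results of these data known. Named were the 10 genes and, per list, any gene called, the highest level per kb and, at a mean of at least 5 CPM, the largest fold change each way. A few results that this rule names are not reported here. Of each marker list the 2 most abundant were named. Replicate numbers are not shared between groups, so no block was fitted.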

Additional observations from a re-analysis of the deposited data

How the results depend on the processing

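Depth was no limit for 9 of the 10 genes, with at least 383 counts in every library; Cd36 had 60 to 223. Precision was set by the spread of 3 libraries per group. The count of 16 genes called over all genes became 255 with DESeq2 (114 higher and 141 lower), 3 with no filter, 25 when a mean CPM of 5 was required and 29 with the length trend removed, and ranged from 1 to 67 when single libraries were left out, the 67 being without TNFa replicate 5 and holding all 16. The other counts, by library left out, were 1, 3 and 2 for PBS replicates 1, 2 and 3 and 3 and 5 for TNFa replicates 4 and 6. None of the 10 genes passed under any alternative other than DESeq2, which called 1 (Fabp5). Of the genes of the further lists DESeq2 called 2 (Tfeb and Cat) and no other alternative called any. DESeq2 called 1.49% of all its tested genes. The adjusted p of Fabp5 ranged over the alternatives from 0.0013 with DESeq2 to 0.71 without PBS replicate 2, and its log2 fold change from 0.43 to 0.59. Signs of the log2 fold change turned for Pparg without PBS replicate 1 (0.0034; with single libraries left out, from -0.14), for Cd36 without PBS replicate 2 (0.39) and TNFa replicate 5 (0.14; from -0.50), and for Dbi without PBS replicate 1 (0.0184), TNFa replicate 4 (0.0185) and TNFa replicate 6 (0.11; from -0.26). The other 329 of 335 values of single genes under 12 alternatives kept their direction. The cause of these changes was not tested, beyond the fewer libraries or other genes tested that the alternatives bring. Cd36 fell under the filter at 5 CPM and has no value there. No paired analysis was possible because the groups share no replicate number.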
